A study of Mus musculus with 18 samples.

Results

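Genes of the serpin A family (Serpina6, Serpina10, Serpina3n, Serpina1b, Serpina1d and Serpina1f) were followed through toxic injury and remodeling of the mouse kidney cortex. These 6 of the 24062 gene symbols in the table were chosen from the data themselves, because Serpina10 was far higher after the toxin and because Serpina6 and Serpina1b responded differently in the genotypes. The differences between toxin and vehicle and between genotypes therefore chose the genes, and they are given below as descriptions without tests. The choice called the genes induced in injured kidney. The levels went along with that name for Serpina10, Serpina6 and Serpina3n at the end of the toxin course. They went against it in the floxed kidneys at that time for Serpina1d and Serpina1b, which were below every vehicle library of that genotype. The mean of Serpina1f was lower there too, with overlap. In the knockout-labelled kidneys the mean of Serpina1d was also lower at that time (15.3 against 60.7 CPM, with overlap).

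Serpins are a family of folded proteins, most of which trap a serine protease by offering it an exposed loop as bait and then changing shape around it. Those of clade A are mostly made by the liver and secreted into the blood, where they restrain coagulation and the proteases of leukocytes, and some carry hormones instead of inhibiting anything. In the mouse, several clade A genes have multiplied into near-identical copies that lie side by side, so that a gene that is single in humans is represented by a family.

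Total RNA was sequenced in 18 libraries from the kidney cortex of C57Bl/6 mice, 3 libraries in each of 6 groups. In Klf6fl/fl mice (fl/fl) the gene of the transcription factor Klf6 is floxed, and Klf6PTKO is the label of its knockout in the proximal tubule, the segment of the nephron that reabsorbs most filtered solutes. Within each genotype, 1 group received the vehicle DMSO, 1 received aristolochic acid I (AAI), a nephrotoxin of Aristolochia plants that damages this segment, for 3 weeks, and 1 received AAI for 3 weeks and was then left for 3 weeks of remodeling (6-week libraries). The floxed alleles are named for both genotypes only through these labels, which give neither the age of the mice, the promoter that drives the Cre recombinase, the week at which DMSO kidneys were taken, nor whether each library is from an animal of its own. The p-values below therefore measure the spread between libraries, which may be technical.

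Values are CPM (reads of a gene per common library total), with the mean ± SD of 3 libraries, and differences are differences of group means of log2(CPM + 1), a scale that understates the change of genes near 0. Depth ran from 11722625 reads in a fl/fl 6-week library to 27213219 reads in a 3-week library labelled PTKO, so that a value of 0 still allowed a level of up to 0.11 to 0.256 CPM in a library (3 reads, counting error only). Klf6 itself overlapped between genotypes under every treatment (39.2 to 42.3 CPM in fl/fl against 40.2 to 56.7 CPM under DMSO), and since whole cortex holds Klf6 RNA of all cell types these levels do not check the genotype label. Libraries are therefore called labelled PTKO. Ddx3y, a Y-linked gene, was at 37.8 to 57.3 CPM in all 18 libraries, and Xist was at or below 0.256 CPM. Liver transcripts stood out in 3 libraries: albumin (Alb) was at 113 and 32.8 CPM in fl/fl DMSO replicates 1 and 2 and at 28.7 CPM in fl/fl 3-week replicate 1, against 1.69 to 16.2 CPM in the other 15. Ahsg, which encodes the hepatocyte protein fetuin-A, was at 11.8, 2.95 and 2.58 CPM in the same libraries and at most 0.579 CPM elsewhere. The sum of all 14 hepatocyte markers did not set these libraries apart. It was 268 CPM in fl/fl DMSO replicate 2, 310 CPM in replicate 3, and 1050 CPM in 3-week replicate 3 labelled PTKO. That list includes Fga, which was higher after AAI (469 against 27.2 CPM in fl/fl at 3 weeks). The adipocyte gene Adipoq was at 6.78 CPM in DMSO replicate 2 and 35.2 CPM in 6-week replicate 2 labelled PTKO, and at most 0.254 CPM elsewhere.

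All 6 genes lie on mouse chromosome 12 (mm10, GENCODE M21 annotation) within 800 kb that hold 28 Serpina genes. Serpina10 (chr12:103614786-103631444), Serpina6 (chr12:103646630-103657212), Serpina1f (chr12:103688044-103695529), Serpina1b (chr12:103728156-103830373) and Serpina1d (chr12:103763594-103773592) are on the minus strand and are the first, the second, the fourth, the fifth and the sixth of these genes by position. Serpina3n (chr12:104406729-104414329, plus strand) is the last, at the far end of the cluster. The annotated span of Serpina1b encloses that of Serpina1d. Neighbours in this order differed: in fl/fl at 3 weeks of AAI, Serpina10 and Serpina6 were higher than under DMSO, and Serpina1d, 4 places further on among the 28, was lower.

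How far reads can tell these genes apart was counted from the 31-base words of their GENCODE M21 transcripts. Of these words, 100% were found in no other gene for Serpina6, 99% for Serpina1f, 98.8% for Serpina10 and 78.4% for Serpina3n. For Serpina1b it was 55.3%, with 31.5% of its words shared with Serpina1a, and for Serpina1d it was 35.3%, with 49.5% shared with Serpina1b. Levels of Serpina1b and Serpina1d are therefore uncertain as to the copy, and their sum with Serpina1a, Serpina1c and Serpina1e is given beside them. The longest open reading frames of Serpina1b and Serpina1d, both of 1242 bases, were 96.5% identical, with 43 bases different. The 60 bases in which they differed most (bases 1114 to 1173 of the frame, plus sense of the transcript, 10 differences) are shown as the stretch where the copies differ most, with the differing bases in capitals. The remaining differences lie elsewhere in the frame. The bait loop, near the end of a serpin, is where the mouse copies are known to differ most.

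Serpina1b: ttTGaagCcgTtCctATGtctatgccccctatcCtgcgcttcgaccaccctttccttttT
Serpina1d: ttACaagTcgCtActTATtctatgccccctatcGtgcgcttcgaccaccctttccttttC

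Serpina6 encodes corticosteroid-binding globulin, the carrier of glucocorticoids in blood, which does not inhibit proteases. It was close to absent from vehicle kidneys. Under DMSO it was at 0.908, 0 and 0.317 CPM in fl/fl and at 0 CPM in each library labelled PTKO. At 3 weeks of AAI it was at 2.84, 2.67 and 2.7 CPM in fl/fl and at 73.9, 65.2 and 37 CPM in those labelled PTKO. The genotypes did not overlap, and the lowest library labelled PTKO lay far above the highest of fl/fl. After remodeling it was at 0.748, 0.682 and 2.01 CPM in fl/fl and at 10.7, 5.63 and 14.1 CPM in the libraries labelled PTKO, again with no overlap. The ratio of means, labelled PTKO over fl/fl, was 21.4 at 3 weeks and 8.85 at 6 weeks. With no read in the DMSO libraries labelled PTKO, the mean of 58.7 CPM at 3 weeks was at least 363-fold higher than their limit of 0.162 CPM (3 reads in the shallowest of these libraries), and that of 10.1 CPM at 6 weeks at least 63-fold higher. These are bulk samples, in which fewer cells of a type and less RNA per cell cannot be told apart.

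Serpina10 encodes the protein Z-dependent protease inhibitor, which blocks coagulation factor Xa with the help of protein Z, and factor XIa without it. Under DMSO it was at 0.605, 0.559 and 1.48 CPM in fl/fl and at 0.499, 0.433 and 0.108 CPM in the libraries labelled PTKO, which are between 2 and 28 reads a library. At 3 weeks it was at 86.6, 97.2 and 97.5 CPM in fl/fl and at 172, 160 and 110 CPM in the libraries labelled PTKO. Every 3-week library lay far above every DMSO library, and those labelled PTKO lay above those of fl/fl. At 6 weeks it was at 65.4, 56.9 and 77.6 CPM in fl/fl and at 84.2, 106 and 52.5 CPM in the libraries labelled PTKO, and the genotypes overlapped. In order of means, the 3-week libraries labelled PTKO (148 CPM) came first, followed by 3-week fl/fl (93.7 CPM), 6-week labelled PTKO (81 CPM) and 6-week fl/fl (66.6 CPM), of which the last 3 overlapped with their neighbours.

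Serpina3n encodes a mouse relative of human alpha-1-antichymotrypsin, an acute phase protein, and the mouse protein inhibits granzyme B and leukocyte elastase. Under DMSO it was at 1.57, 0.254 and 0.37 CPM in fl/fl and at 0.3, 0.241 and 0.162 CPM in the libraries labelled PTKO. At 3 weeks it was at 126, 263 and 201 CPM in fl/fl and at 54.8, 38 and 75.1 CPM in the libraries labelled PTKO. Here fl/fl was the higher genotype, with no overlap. At 6 weeks it was at 89.9, 71.9 and 86.6 CPM in fl/fl and at 25.8, 51.2 and 23.3 CPM in the libraries labelled PTKO, again without overlap. It was thus the member of the 6 whose genotype difference pointed the other way after AAI: labelled PTKO minus fl/fl was -1.79 at 3 weeks and -1.36 at 6 weeks, against 3.94 and 2.35 for Serpina6 and 0.63 and 0.23 for Serpina10. Part of its sequence is shared within the Serpina3 copies (5.9% of its words with Serpina3f, the copy sharing most).

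**Figure D1:**
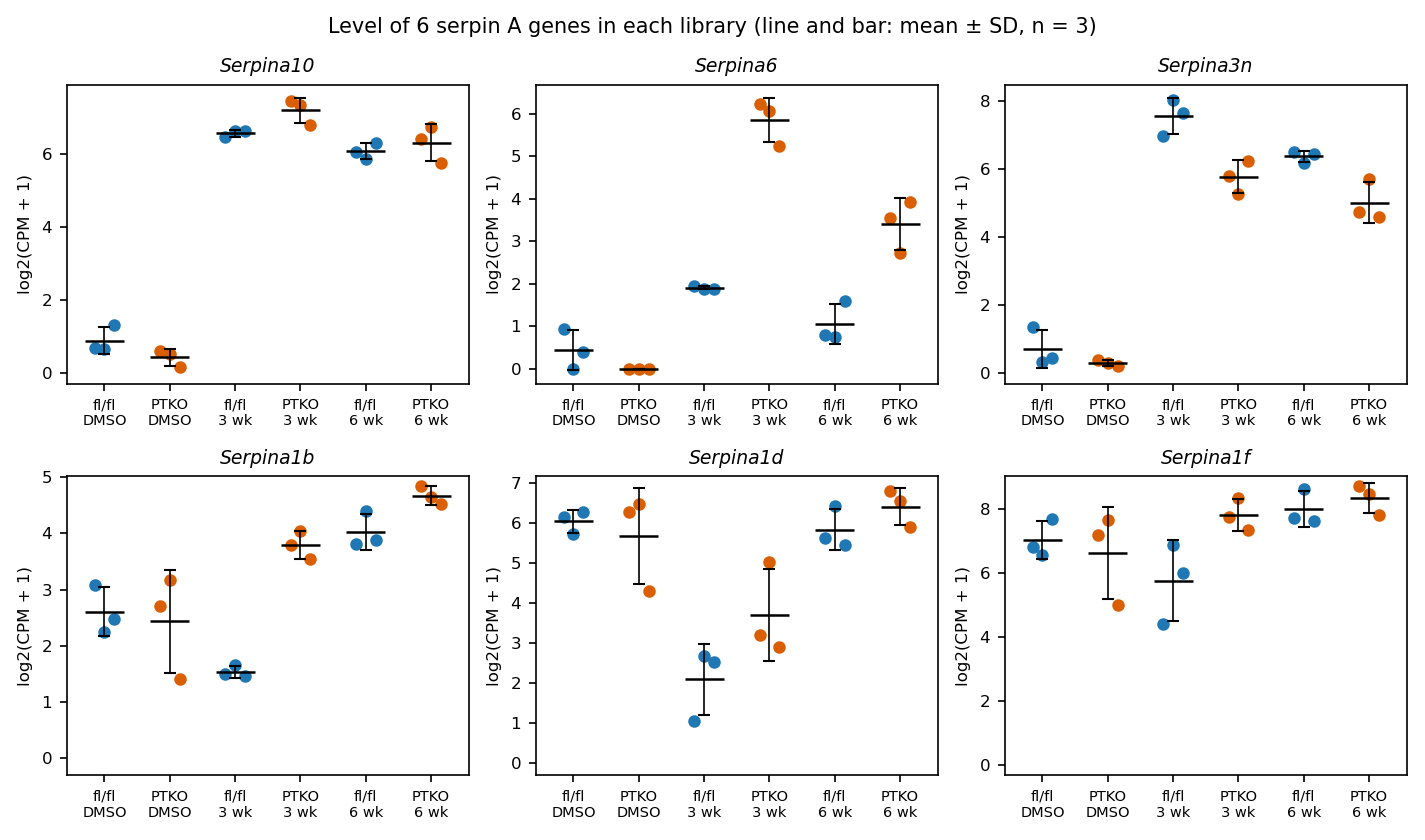
Level of each gene as log2(CPM + 1) in the 6 groups, where each point is 1 library, the line is the group mean and the bar its SD over 3 libraries (blue, fl/fl; orange, labelled PTKO; 3 wk and 6 wk, AAI). Serpina10, Serpina6 and Serpina3n start near 0 under DMSO, whereas Serpina1d is lowest in the fl/fl 3-week libraries, where it is at 1.08 to 5.39 CPM.

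Serpina1b and Serpina1d are mouse copies of the gene for alpha-1-antitrypsin, the main inhibitor of neutrophil elastase in blood, and the copies are known to differ in the proteases they bind. Serpina1b was at 7.51, 3.76 and 4.54 CPM in fl/fl and at 5.54, 8.03 and 1.67 CPM in the libraries labelled PTKO under DMSO. At 3 weeks it was at 1.83, 2.16 and 1.74 CPM in fl/fl and at 12.9, 15.4 and 10.7 CPM in the libraries labelled PTKO. All fl/fl 3-week libraries were below all fl/fl DMSO libraries, and all 3-week libraries labelled PTKO were above every DMSO library, so that the means of the genotypes at 3 weeks were 6.8-fold apart. At 6 weeks it was at 13.1, 20.1 and 13.7 CPM in fl/fl and at 27.8, 24 and 21.9 CPM in the libraries labelled PTKO. Both genotypes were then above their DMSO libraries, and they did not overlap with each other.

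Serpina1d was the more abundant of these copies in vehicle kidneys, at 47.1 CPM per kb of exon in fl/fl against 2.18 CPM per kb for Serpina1b. Under DMSO it was at 70.1, 51.4 and 75.4 CPM in fl/fl and at 76.7, 86.8 and 18.7 CPM in the libraries labelled PTKO. At 3 weeks it was at 1.08, 5.39 and 4.75 CPM in fl/fl and at 8.19, 31.4 and 6.44 CPM in those labelled PTKO. The fl/fl libraries had lost most of the level seen under DMSO, the libraries labelled PTKO overlapped with their own DMSO libraries through DMSO replicate 3, and the genotypes did not overlap. At 6 weeks it was at 48, 83.9 and 42.7 CPM in fl/fl and at 109, 91.9 and 58.3 CPM in the libraries labelled PTKO, so that fl/fl overlapped with its DMSO libraries again.

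Serpina1f belongs to the same subfamily but is more distant in sequence, with a reading frame 55.9% identical to that of Serpina1b. Under DMSO it was at 112, 94.3 and 206 CPM in fl/fl and at 146, 203 and 31 CPM in the libraries labelled PTKO. At 3 weeks it was at 20.3, 118 and 62.8 CPM in fl/fl and at 215, 321 and 162 CPM in the libraries labelled PTKO, and at 6 weeks at 211, 398 and 196 CPM in fl/fl and at 425, 354 and 225 CPM in those labelled PTKO. The genotypes were separate at 3 weeks and overlapped at 6 weeks and under DMSO. Per kb of exon it was the most abundant of the 6 in the 6-week libraries, at 84.2 CPM per kb in fl/fl and 105 CPM per kb in those labelled PTKO, and at 3 weeks in fl/fl Serpina3n was, at 95.3 CPM per kb.

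The summed level of Serpina1a to Serpina1e, which does not depend on how reads were split between these copies, followed Serpina1d. Under DMSO it came to 95.7, 63.4 and 91.9 CPM in fl/fl and to 89.4, 111 and 23.6 CPM in the libraries labelled PTKO. At 3 weeks it came to 5.86, 9.99 and 8.51 CPM in fl/fl and to 30.6, 56.3 and 23 CPM in those labelled PTKO, and at 6 weeks to 75.6, 126 and 64.9 CPM in fl/fl and to 175, 141 and 120 CPM in those labelled PTKO. The 3-week genotypes were separate in the sum too, and at 6 weeks the groups overlapped. Of the other copies, Serpina1a had the same low at 3 weeks in fl/fl (0.261, 1.97 and 1.53 CPM) and was at 34.6, 23 and 37.8 CPM in the 6-week libraries labelled PTKO. Serpina1e reached 1 CPM in exactly the 3 libraries with raised liver transcripts (5.69, 1.17 and 2.09 CPM) and was at most 0.464 CPM elsewhere, and the related Serpina3k was at 14.3, 3 and 3.73 CPM there and at most 0.789 CPM elsewhere. Leaving these 3 libraries out, which leaves 1 fl/fl DMSO library, moved the AAI difference in fl/fl at 3 weeks from -1.07 to -0.91 for Serpina1b, from -3.95 to -3.66 for Serpina1d, from 5.69 to 5.31 for Serpina10 and from 6.85 to 7.40 for Serpina3n.

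The region before the start of Serpina1b and Serpina1d is shown because their measured levels went apart under AAI while their start regions are much alike. At 6 weeks Serpina1b was above DMSO without overlap in both genotypes, and Serpina1d overlapped with DMSO in both. As said above, the split of reads between these copies is uncertain. The start region shown for Serpina1b lies inside the annotated span of that gene, so the annotation also holds a start further upstream. RefSeq (GRCm38.p6) gave a start region of 300 bases, 250 before and 50 after the start, for 4 of the 6 genes, and those of Serpina1b (chr12:103738140-103738439, minus strand) and Serpina1d (chr12:103773584-103773883, minus strand) were 86.9% identical. Each holds the C/EBP letters TTNNGCAA once, on the opposite strand, beginning at base -161 and base -149 from the start, in capitals below. On either strand these letters were found in 10.8% of 32851 promoters of the same length, and the start region of Serpina1f holds them once as well. Serpina1b and Serpina1d also hold the letters of a partial site of the hepatic nuclear factor HNF1, GTTAAT, once each (7.1% of promoters). They hold the letters of a partial glucocorticoid receptor site, TGTTCT, once each too (19%). Neither start region holds the KLF and SP letters CCNCNCCC (49.5%). That of Serpina3n (chr12:104406458-104406757, plus strand), the most abundant of the 6 per kb in fl/fl at 3 weeks, holds a match to the NF-kB motif once (4.79% of promoters), in capitals below, and TGTTCT once. Such matches describe these letters only, and the binding of a factor was not measured.

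Serpina1b: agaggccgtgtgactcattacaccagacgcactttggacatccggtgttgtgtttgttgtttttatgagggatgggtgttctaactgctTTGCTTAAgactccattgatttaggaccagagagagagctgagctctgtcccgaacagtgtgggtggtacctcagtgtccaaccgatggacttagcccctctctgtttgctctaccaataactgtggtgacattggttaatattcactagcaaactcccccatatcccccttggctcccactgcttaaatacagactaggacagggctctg
Serpina1d: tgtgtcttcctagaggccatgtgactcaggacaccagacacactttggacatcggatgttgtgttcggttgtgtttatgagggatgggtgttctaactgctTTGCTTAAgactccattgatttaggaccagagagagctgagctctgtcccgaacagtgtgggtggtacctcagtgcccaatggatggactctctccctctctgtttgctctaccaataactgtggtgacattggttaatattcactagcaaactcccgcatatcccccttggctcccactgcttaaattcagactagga
Serpina3n: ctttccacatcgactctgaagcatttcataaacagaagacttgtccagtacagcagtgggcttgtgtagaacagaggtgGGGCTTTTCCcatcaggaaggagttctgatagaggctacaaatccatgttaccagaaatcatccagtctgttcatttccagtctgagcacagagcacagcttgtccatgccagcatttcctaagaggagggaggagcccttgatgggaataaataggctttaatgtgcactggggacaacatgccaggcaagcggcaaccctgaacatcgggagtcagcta

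The differences that chose the genes are counted here by overlap between libraries. For AAI against DMSO in fl/fl, 3 of the 6 genes lay above DMSO without overlap at 3 weeks (Serpina10, Serpina6 and Serpina3n) and 2 below (Serpina1b and Serpina1d), where 60.8% of all 14604 genes tested lay above and 19.9% below. At 6 weeks in fl/fl 3 lay above and 0 below (63% and 15.7% of all genes). In the libraries labelled PTKO 4 lay above and 0 below at 3 weeks (59.6% and 15.3%), and 5 above and 0 below at 6 weeks (55.6% and 12.7%). Between genotypes, 5 of the 6 were higher and 1 lower in the libraries labelled PTKO at 3 weeks (14.5% and 19.3% of all genes), 2 were higher and 1 lower at 6 weeks (6.59% and 21.1%), and 0 were higher and 1 lower under DMSO (7.04% and 9.44%). AAI also moved the median of all genes, by 0.45 at 3 weeks in fl/fl, and by 0.03 once the libraries were scaled by the median of ratios.

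The change from 3 to 6 weeks within a genotype did not choose the genes, although it shares its 3-week libraries with the differences that did. An extreme 3-week level could thus favour both the choice of a gene and its change to 6 weeks. The p-values and counts below are not corrected for this. The change was fitted with limma over all 18 libraries and adjusted over all genes tested. In fl/fl 4 of the 6 genes changed, 3 of them upward, where 13.2% of all genes changed (7.16% upward and 6.07% downward). Serpina1d rose by 3.74 ± 0.59 (SE, 95% interval 2.48 to 4.99, adjusted p = 0.00156) from the low 3-week levels given above. Serpina1b rose by 2.49 ± 0.33 (1.79 to 3.19, adjusted p = 0.000628), with every 6-week library above every 3-week one. Serpina1f rose by 2.23 ± 0.63 (0.88 to 3.57, adjusted p = 0.0315), a call that was lost without the 3-week replicate 1 (1.55, adjusted p = 0.109), the 3-week replicate 3 (2.34, adjusted p = 0.0826) or the 6-week replicate 2 (1.91, adjusted p = 0.14). It was also lost with no filter (adjusted p = 0.0835), with the compared groups alone (adjusted p = 0.0633) and without the 3 libraries with liver transcripts (1.55, adjusted p = 0.138). Serpina3n fell by 1.18 ± 0.33 (-1.88 to -0.48, adjusted p = 0.029), which was lost without the 3-week replicates 2 or 3 (adjusted p = 0.111 and 0.101) or the 6-week replicate 2 (adjusted p = 0.116), with a pseudocount of 0.1 (adjusted p = 0.105), with no filter (adjusted p = 0.0741) and with DESeq2 (adjusted p = 0.0587). Serpina10 was at -0.50 ± 0.24 (-1.0 to 0.01, adjusted p = 0.177) and Serpina6 at -0.85 ± 0.32 (-1.52 to -0.18, adjusted p = 0.0832), neither of which passed. Without 6-week replicate 3 Serpina6 did pass (-1.12, adjusted p = 0.0384).

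In the libraries labelled PTKO 3 of the 6 changed from 3 to 6 weeks, where 11.2% of all genes changed (2.92% upward and 8.26% downward). Serpina6 fell by 2.44 ± 0.32 (-3.11 to -1.77, adjusted p = 0.000881, limma), and its 6-week libraries were all below its 3-week libraries. Serpina1d rose by 2.70 ± 0.59 (1.45 to 3.95, adjusted p = 0.0108), at an adjusted p of 0.0524 without 3-week replicate 1 and 0.0547 without 3-week replicate 3. Serpina10 fell by 0.89 ± 0.24 (-1.40 to -0.38, adjusted p = 0.0283), which edgeR on the recovered reads put at an adjusted p of 0.0553 and which was also lost with a pseudocount of 0.1 (adjusted p = 0.139), no filter (0.0716), the compared groups alone (0.115), and on leaving out the 3-week replicates 1 or 2 or the 6-week replicates 1 or 3 (adjusted p = 0.118, 0.0646, 0.0579 and 0.0946). Serpina1b was at 0.88 ± 0.33 (0.18 to 1.58, adjusted p = 0.0956), Serpina3n at -0.76 ± 0.33 (-1.46 to -0.06, adjusted p = 0.143) and Serpina1f at 0.53 ± 0.63 (-0.81 to 1.87, adjusted p = 0.626), none of which passed. Among the alternatives, Serpina1b passed in limma with quantile normalization (adjusted p = 0.0475), the compared groups alone (0.0457) and without DMSO replicate 3 labelled PTKO (0.0206). Serpina3n passed without 6-week replicate 2 (adjusted p = 0.041). Whether the changes differ between genotypes was not tested, because the genotype response chose the genes. Serpina1b and Serpina1d in fl/fl and Serpina6 in the libraries labelled PTKO passed under all 30 alternatives run. All of these draw on the same 3-week libraries, so the limit from the choice of genes holds for them too.

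**Figure D2:**
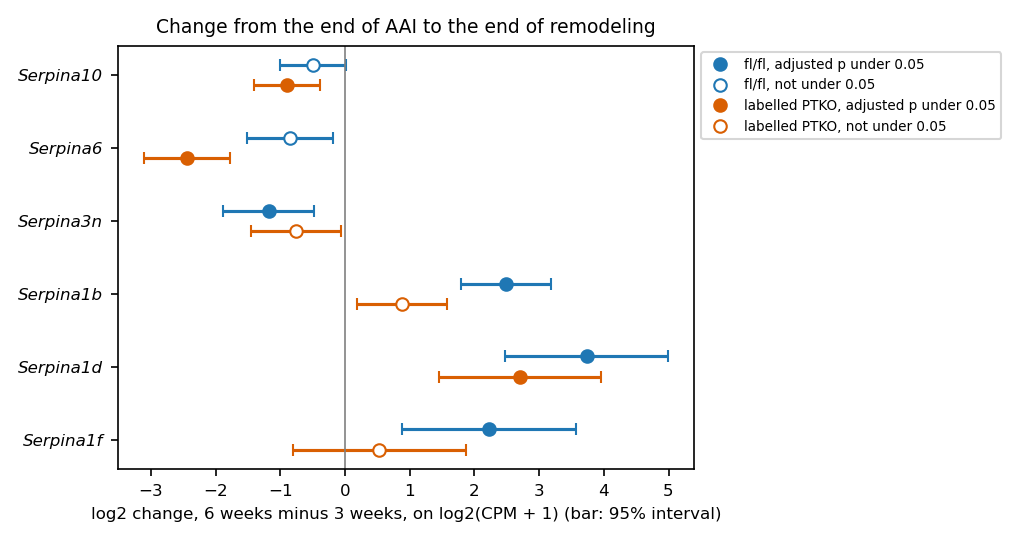
Change of each gene from 3 to 6 weeks as the difference of means of log2(CPM + 1), with its 95% interval from limma (blue, fl/fl; orange, labelled PTKO; filled, adjusted p under 0.05). Serpina1b, Serpina1d and Serpina1f lie to the right of 0, with Serpina1d highest at 3.74 in fl/fl, and Serpina6, Serpina10 and Serpina3n lie to the left, with Serpina6 lowest at -2.44 in the libraries labelled PTKO.

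Markers of other cells moved with these genes, and their part in the differences was not tested. The 6 markers of the S3 segment (the straight, last part of the proximal tubule; Serpina1f itself was on this list and was left out) summed to 5660 to 6190 CPM in fl/fl and 4630 to 6260 CPM in the libraries labelled PTKO under DMSO. At 3 weeks they summed to 170 to 308 CPM in fl/fl and 537 to 1220 CPM in those labelled PTKO, and at 6 weeks to 815 to 2900 CPM and 546 to 2530 CPM. All 6 S3 markers fell at 3 weeks in fl/fl (18.2% of all genes did), all 6 rose from 3 to 6 weeks in fl/fl with a median of 2.87 (0.00 over all genes), and 5 of 6 were higher in the libraries labelled PTKO at 3 weeks (6.22% of all genes). The means of Serpina1b, Serpina1d and Serpina1f were lowest in fl/fl at 3 weeks, where these markers were lowest. Between other groups they often parted, whereas within a group Serpina1d and Serpina1f mostly ranked with the S3 sum. In the 3-week libraries labelled PTKO, sums of 679, 1220 and 537 CPM went with Serpina1d at 8.19, 31.4 and 6.44 CPM. For both genes the order matched in every group except DMSO labelled PTKO, where replicate 3 was lowest in genes and markers alike. Each single library named next had the lowest or the highest S3 sum of its own group. DMSO replicate 3 labelled PTKO was low in all 3 genes (1.67, 18.7 and 31 CPM) with an S3 sum of 4630 CPM. The 6-week replicate 3 labelled PTKO had 21.9, 58.3 and 225 CPM at a sum of 546 CPM. Serpina1f in fl/fl 3-week replicate 2 (118 CPM, sum 308 CPM) was above fl/fl DMSO replicates 1 and 2 (112 and 94.3 CPM). Serpina1b and Serpina1f had higher means than under DMSO at lower S3 sums in both genotypes at 6 weeks. They also did in the libraries labelled PTKO at 3 weeks (13 against 5.08 CPM and 233 against 127 CPM). At 6 weeks Serpina1d overlapped with DMSO, at 86.4 against 60.7 CPM in the libraries labelled PTKO and 58.2 against 65.6 CPM in fl/fl. Cyp7b1, an S3 marker and an oxysterol hydroxylase, was at 55.8 CPM in DMSO replicate 3 labelled PTKO, against 238 and 262 CPM in the other DMSO libraries of that label.

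**Figure D3:**
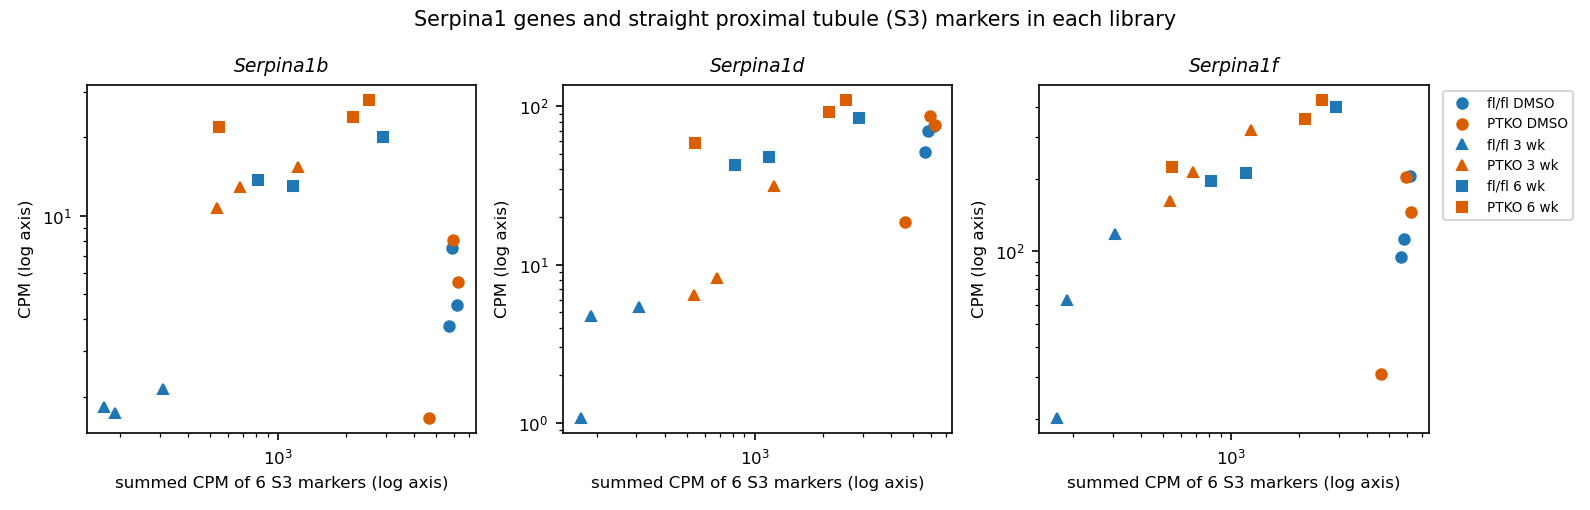
CPM of Serpina1b, Serpina1d and Serpina1f in each library against the summed CPM of 6 S3 markers, both on log axes (blue, fl/fl; orange, labelled PTKO; circles, DMSO; triangles, 3 weeks; squares, 6 weeks). The fl/fl 3-week libraries lie at the left of each plot, at S3 sums of 170 to 308 CPM. They are low for Serpina1b and Serpina1d, whereas Serpina1f is at 118 CPM in replicate 2. The 1 low circle is DMSO replicate 3 labelled PTKO, at 1.67, 18.7 and 31 CPM.

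Markers of injured tubules, which include Havcr1 (kidney injury molecule 1), rose 8 of 8 in fl/fl at 3 weeks (58% of all genes did), and summed to 16200 to 21300 CPM in fl/fl and 16100 to 21600 CPM in the libraries labelled PTKO, against at most 796 CPM under DMSO. Serpina10 was most like a gene of this list. Over the 18 libraries its log2 level correlated with that of Havcr1 at r = 0.995, of Ankrd1 at 0.991 and of Spp1 at 0.990, a description in which the step from DMSO to AAI weighs most. Serpina3n was most like Antxr1 (0.992), Ltbp2 (0.992) and Lox (0.991), the last of which encodes an enzyme that crosslinks collagen. Macrophage markers summed to 5050 to 8560 CPM in fl/fl and 1670 to 3330 CPM in the libraries labelled PTKO at 3 weeks, and 7 of 7 were lower in the latter (8% of all genes were). Fibroblast markers summed to 3270 to 4290 CPM and 1510 to 1890 CPM, with 0 of 8 lower past the threshold. At 6 weeks 5 of 8 fibroblast markers (median -1.20) and 4 of 7 macrophage markers (median -0.92) were lower in the libraries labelled PTKO, where 11.8% of all genes were. Serpina3n was lower in the libraries labelled PTKO at both times.

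Serpina6 was most like Ces2e (r = 0.906), which encodes a carboxylesterase, Cxcl11 (0.897), a chemokine, and Fbxo2 (0.881), so no gene tracked it as closely as Havcr1 tracked Serpina10. Serpina1b was most like Scd1 (0.898), the stearoyl-CoA desaturase, Uroc1 (0.886) and its own copy Serpina1a (0.885). Serpina1d was most like Tmem243 (0.940), Car5a (0.940) and Mrps36 (0.937), and Serpina1f like Mettl7a2Higd1c (0.962), A4gnt (0.959) and Scd1 (0.926). Among the 6 themselves the closest were Serpina10 with Serpina3n (0.94) and Serpina1b with Serpina1f (0.87), and the most opposed were Serpina1d with Serpina3n (-0.53).

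The other serpins of the table show how common such levels were in the family. Of 57 other serpin symbols 24 passed the filter on low values, 9 of clade A and 15 of other clades. At 3 weeks in fl/fl 18 of the 24 rose and 4 fell, with a median of 2.32 against 0.45 over all genes, where 58% of all genes rose and 18.2% fell. Serpina3g, a copy of the Serpina3 group known in the mouse as an inhibitor of cathepsins, rose by 5.92 ± 0.37 from 1.06 ± 0.323 to 124 ± 25.4 CPM (adjusted p = 1.37e-09). Serpine2, protease nexin 1, rose by 4.38 ± 0.17 from 13.8 to 304 CPM (adjusted p = 3.84e-11). Serpinf2, alpha-2-antiplasmin, had the largest fall and fell by 3.48 ± 0.37 from 545 ± 6.39 to 50.4 ± 20.5 CPM (adjusted p = 3.69e-07), followed by Serpina1a (-1.86, adjusted p = 0.00148) and Serpinc1, antithrombin (-1.48, adjusted p = 0.000381), which is also on the hepatocyte list. In the other AAI comparisons 16 rose and 4 fell (6 weeks, fl/fl, where 59.8% of all genes rose and 13.9% fell), 17 and 1 (3 weeks, labelled PTKO, 57.2% and 13.9%), and 18 and 1 (6 weeks, labelled PTKO, 53.7% and 11.4%).

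From 3 to 6 weeks in fl/fl, 2 of the 24 other serpins rose and 6 fell, where 7.16% of all genes rose and 6.07% fell. Those that rose were Serpina1a (2.66 ± 0.45, adjusted p = 0.00247) and Serpinf2 (1.17 ± 0.37, adjusted p = 0.0468), both of which had fallen at 3 weeks. Serpina3f (-1.31, adjusted p = 0.0344), Serpina3g (-1.27, adjusted p = 0.0353) and Serpinb9b (-1.03, adjusted p = 0.029) were the largest of the falls. In the libraries labelled PTKO 1 rose, Serpina1a (1.93 ± 0.45, adjusted p = 0.0155), and 3 fell, Serpina3g (-1.36, adjusted p = 0.03), Serpinb9b (-1.26, adjusted p = 0.0132) and Serpine2 (-0.94, adjusted p = 0.00494), where 2.92% of all genes rose and 8.26% fell. These smaller counts moved with single libraries: the 6 falls in fl/fl became 0 without 3-week replicate 3 or 6-week replicate 2, 1 without 3-week replicate 2 and 3 without 3-week replicate 1.

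**Figure D4:**
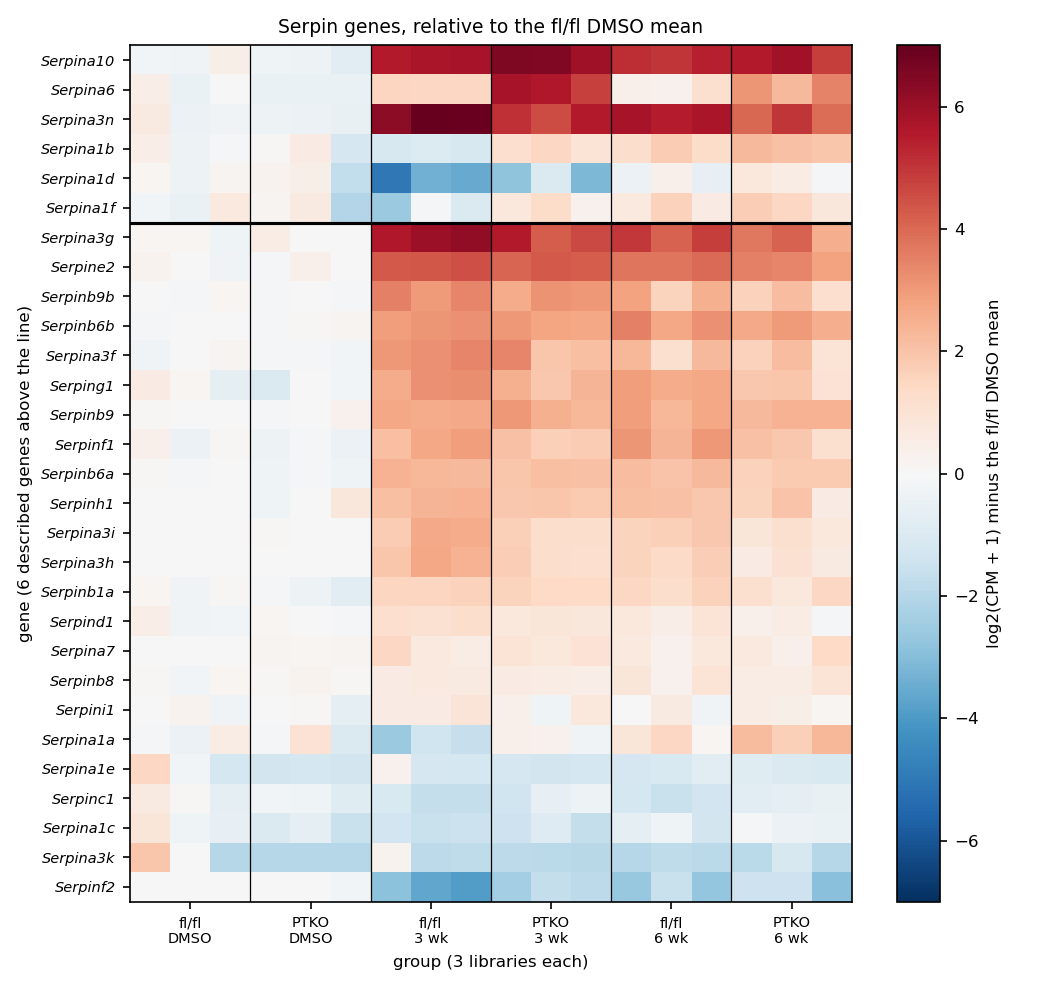
Level of the 6 described serpin genes (above the line) and 23 other serpin genes that passed the filter in each of 18 libraries, as log2(CPM + 1) minus the mean of the fl/fl DMSO libraries (red, higher; blue, lower). Serpina10, Serpina3n, Serpina3g and Serpine2 are red in every AAI library, and Serpina1d is blue at 3 weeks, as is Serpinf2.

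The proteins on which these serpins act, or with which they act, were read from a list of 15 genes, 9 of which passed the filter. F10, whose product factor Xa is the target of the Serpina10 protein, rose in fl/fl at 3 weeks, from 0.476 ± 0.185 to 49.7 ± 14.8 CPM (5.07 ± 0.41, adjusted p = 1.96e-08), and Proz, the protein Z cofactor, fell from 18 ± 2.27 to 2.69 ± 0.663 CPM (-2.37 ± 0.21, adjusted p = 5.30e-08). In the libraries labelled PTKO F10 rose less far in CPM, to 10.3 ± 7.17 CPM, and was lower than in fl/fl at 3 weeks (-2.33 ± 0.41, adjusted p = 0.00373), where Serpina10 was the higher one. F3, tissue factor, rose from 32 ± 2.92 to 87.2 ± 3.3 CPM in fl/fl (adjusted p = 6.95e-06), and Gzmb, a target of the Serpina3n protein, from 0.138 to 1.78 CPM (adjusted p = 0.0263). Over the list 6 of 9 rose and 2 fell at 3 weeks in fl/fl, shares near those of all genes (58% and 18.2%), with a median of 1.38 against 0.45.

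Genes that handle or answer to corticosteroids, the cargo of the Serpina6 protein, were all 10 tested. At 3 weeks in fl/fl 3 rose and 1 fell (58% and 18.2% of all genes did), with a median of 0.42 against 0.45 over all genes. Hsd11b1, which regenerates active glucocorticoid, fell from 198 ± 66.9 to 51.1 ± 6.55 CPM in fl/fl (adjusted p = 2.31e-05) and from 185 ± 49.4 to 52.3 ± 4.68 CPM in the libraries labelled PTKO (adjusted p = 5.90e-05). Hsd11b2, which inactivates it, rose from 168 ± 16.9 to 303 ± 8.2 CPM in fl/fl (adjusted p = 0.000227). Between genotypes at 3 weeks, where Serpina6 differed most, 1 of 10 was called, Tsc22d3, a gene induced by glucocorticoids, which was lower in the libraries labelled PTKO (38 ± 10.1 against 72.4 ± 17 CPM, adjusted p = 0.014). That count is near the share of all genes (6.22% higher and 8% lower). The receptor Nr3c1 was at 144 ± 3.73 and 122 ± 12.9 CPM (adjusted p = 0.133), and Fkbp5 at 140 ± 62.5 and 209 ± 89.8 CPM (adjusted p = 0.224).

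Acute phase genes and their signals, the company in which human antichymotrypsin and antitrypsin are known, gave 17 of 20 tested genes higher and 0 lower at 3 weeks in fl/fl, with a median of 3.09, where 58% of all genes were higher and the median was 0.45. C3 rose from 25 ± 8.42 to 2860 ± 53.8 CPM (6.83 ± 0.25, adjusted p = 1.67e-11), and Socs3, a brake on cytokine signals, from 3.77 ± 0.557 to 139 ± 35.5 CPM (4.85 ± 0.23, adjusted p = 1.56e-10). In the libraries labelled PTKO 16 of 20 rose (57.2% of all genes did). Between genotypes at 3 weeks 6 of the 20 were lower in the libraries labelled PTKO and 0 higher (8% and 6.22% of all genes were), C3 among them (-0.79 ± 0.25, adjusted p = 0.0457), whereas Osmr (-0.30, adjusted p = 0.448) and Socs3 (-0.23, adjusted p = 0.545) did not pass.

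Of 7 hepatic nuclear factor genes, 5 passed the filter, and 3 fell and 1 rose at 3 weeks in fl/fl (18.2% and 58% of all genes did). Of the proximal tubule markers, 10 of 10 were lower at 3 weeks in fl/fl (median -2.54) and 7 of 10 were higher in the libraries labelled PTKO than in fl/fl at that time (6.22% of all genes were), and their part in these values was not tested. Hnf4a, which is on both lists, fell from 1220 ± 29.1 to 385 ± 119 CPM (-1.71 ± 0.19, adjusted p = 6.80e-07). It was higher in the libraries labelled PTKO at 3 weeks, at 609 ± 33 CPM (adjusted p = 0.025). From 3 to 6 weeks in fl/fl it was at 0.37 ± 0.19 (adjusted p = 0.208), which did not pass. Cebpa was the 1 that rose at 3 weeks, from 34.4 ± 3.24 to 73.2 ± 16.6 CPM (adjusted p = 3.45e-05). The means of Serpina1d and Hnf4a were both lowest in fl/fl at 3 weeks. Library by library their order there differed, with Hnf4a at 509, 373 and 272 CPM and Serpina1d at 1.08, 5.39 and 4.75 CPM. At 6 weeks in fl/fl Serpina1d had a mean of 58.2 CPM against 65.6 CPM under DMSO. Hnf4a was then at 387, 618 and 467 CPM, against its DMSO mean of 1220 CPM. Whether one depends on the other was not tested.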

How the data were processed

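The members and lists were chosen with earlier results of these data known. Groups came from the sample labels. The deposited table holds CPM made by the authors, and the submitters' processing notes name bcl2fastq 2.19, kallisto and mm10. The kit was TruSeq Stranded Total RNA, per the labels' protocols. Scaled to reads, each of the 433116 deposited CPM values (100%) came within 0.01 of an integer, so reads were recovered. How whole counts were made is not given in the sources used here.

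The filter asked for 1 CPM or more in 3 or more libraries and left 14604 genes, all 6 members among them. Log2(CPM + 1) was fitted with limma 3.58.1 (R 4.3.3), 6 group means, a variance trend and 12 residual degrees of freedom. Tests were two-sided, with Benjamini-Hochberg adjustment over all genes tested and a threshold of 0.05. The pooled spread assumes that groups vary alike. The fit was tested on simulated data.

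Alternatives were another pseudocount, filter, scaling and variance model, the compared groups alone, a replicate block, edgeR 4.0.16 and DESeq2 1.42.0 on recovered reads, and leaving out each library. Leaving out the 3 libraries with liver transcripts or the 2 with adipocyte transcripts was added after seeing the data. Replicate numbers did not pair the libraries (correlations of same-numbered deviations from -0.37 to 0.24). Named were the members, the 3 genes with the highest Pearson correlation to each, the 3 other serpins with the largest changes each way in 3 comparisons, the copies Serpina1a, Serpina1c and Serpina1e, and at most 5 genes a list. Some items that this rule gives are not reported here. Sequences are from GENCODE M21 transcripts and RefSeq start regions. Alignments used Biopython 1.88.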

Additional observations from a re-analysis of the deposited data

Results flagged for a closer look

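Pairs of effects were looked at in all serpins tested for AAI and for time, and in the members alone for genotype. Of 108 such pairs, 2 had every library of each group moving opposite ways. The share of all genes that meet this rule was not counted. Serpina1b under AAI at 3 weeks differed from DMSO by -1.07 in fl/fl, where every AAI library was below every DMSO library, and by 1.36 in the libraries labelled PTKO, where every one was above. Serpina10 in the libraries labelled PTKO differed from fl/fl by -0.46 under DMSO, at 2 to 28 reads a library, and by 0.63 at 3 weeks, with no overlap either time. Neither difference was tested, since both rest on the comparisons that chose the genes.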

How the results depend on the processing

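No change of a member from 3 to 6 weeks turned its direction under any of the 30 alternatives. Of 360 such values 333 kept their side of the threshold, 22 lost it and 5 gained it. Among the descriptive differences, Serpina6 at 6 weeks in fl/fl was -0.13 under quantile normalization against 0.61, and between genotypes under DMSO Serpina1b, Serpina1d and Serpina1f were at 0.34, 0.33 and 0.41 without DMSO replicate 3 labelled PTKO, against -0.17, -0.36 and -0.41. With no filter 2 in place of 4 members changed in fl/fl, a setting that tests more genes; leaving out 1 library at a time gave 2 to 5, and 1 to 4 in place of 3 in the libraries labelled PTKO. The cause was not tested for the following counts of other serpins. From 3 to 6 weeks in fl/fl the 2 higher became 1 with a pseudocount of 0.1, no filter, median-of-ratios scaling, the compared groups alone, no variance trend, edgeR, and without the 3 liver or the 2 adipocyte libraries (1 to 2 over single libraries left out). The 6 lower became 0 with a pseudocount of 0.1, 1 with no filter or edgeR, and 2 with the compared groups alone or without the liver libraries (0 to 6). In the libraries labelled PTKO the 1 higher became 2 with a pseudocount of 0.1, quantile normalization, DESeq2 and without the liver libraries (0 to 2), and the 3 lower became 0 with the compared groups alone (1 to 5). For AAI at 6 weeks in fl/fl the 4 lower became 2 with no filter or the compared groups alone, and 1 at 5 CPM or without the liver libraries (2 to 5). At 3 weeks in fl/fl the 4 lower became 2 at 5 CPM, and under quantile normalization the 1 lower in the libraries labelled PTKO became 3 at 3 weeks and 2 at 6 weeks. With the replicate number as a block, 4 and 3 members changed as before, and the 1 higher other serpin in the libraries labelled PTKO became 2. Depth limits Serpina6 and Serpina10 under DMSO, at 0 to 28 reads a library, and copies of Serpina1 share sequence.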
